A study of Homo sapiens with 2 samples.

Results

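The genes described here were 40 transcription factor genes of the forkhead (FOX, 24 genes) and SOX (16 genes) families, taken as a fixed list of names. CpG dinucleotides within 5 kb of the most upstream annotated transcription start site (TSS) of each gene in GRCh37 were used where both cell lines had more than 5 reads. All 40 genes passed, of 19909 protein-coding genes with at least 10 such CpG dinucleotides, and their windows held 17070 of the 24454751 nuclear CpG dinucleotides covered in this way. A window held 157 to 737 of them, and 97.0% of the CpG dinucleotides listed in the windows were used.

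Whole-genome bisulfite sequencing was carried out on OCI-AML3, an established acute myeloid leukemia (AML) cell line with a heterozygous missense mutation of DNMT3A, and on AML5 (OCI-AML5 in the sample record), an AML line that is wild type for this DNA methyltransferase. Both were grown in DMEM with 10% FBS per the labels. The lines come from different patients and differ in far more than DNMT3A, so an effect of the mutation and any other difference between the lines cannot be told apart. Bisulfite turns unmethylated cytosine into a base read as thymine, so the methylation level of a CpG dinucleotide is the share of its reads that still show cytosine. Each line had 1 library and no replicates. All intervals and P-values below therefore cover counting error only, without any variation between cultures, and even that too narrowly, because 1 read can cover several CpG dinucleotides and removal of PCR duplicates is not stated in the sources used here.

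The deposited tables held 902802339 calls for OCI-AML3 and 894828667 for AML5, with medians of 27 and 30 calls per nuclear CpG dinucleotide. Over the FOX and SOX windows mean depth reached 49.9 calls per CpG dinucleotide for OCI-AML3 against 34.8 for AML5. Of these genes, 38 of 40 were deeper in OCI-AML3 (25.8 to 80.7 calls against 24.8 to 56.9). Over the windows of all protein-coding genes mean depth was 47.2 against 36.9, so deeper OCI-AML3 coverage was not particular to these genes. The share of all genes deeper in OCI-AML3 was not counted. The part of the depth difference in the results was not tested. As a check of the cell type, 2 of 13 myeloid genes were unmethylated within 1 kb of the TSS in both lines, the myeloid master factor genes CEBPA (0.085% in OCI-AML3 and 0.13% in AML5) and SPI1 (5.12% and 5.18%). This share lies below the 45.5% of all protein-coding genes. MPO (88.6% and 85.0%) and CSF1R (78.9% and 90.1%) were methylated there in both lines, and AZU1 (3.31% and 88.8%) and ELANE (7.83% and 69.3%) in AML5 only. Of 13 genes of lymphoid, epithelial, liver and islet cells with enough CpG dinucleotides, 0 were unmethylated in both lines.

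Forkhead proteins bind DNA through a winged-helix domain, and several of them (the FOXA proteins above all) can open closed chromatin. SOX proteins bind the minor groove through an HMG box and bend DNA, usually together with a partner factor. Most members of both families direct the formation of an organ or germ layer, and many are silent in blood, their CpG islands being held by Polycomb complexes in many cell types and often becoming methylated in cancer. A smaller group, among them FOXO1, FOXO3, FOXP1, FOXM1 and SOX4, acts in blood cells.

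To show the sequence behind the differences, 9 short stretches are given first. They come from the 5 genes that decreased most and the 5 that increased most within 5 kb, and are at most 120 bp long. No stretch of FOXA3 is shown, because none that was long enough lay wholly outside UTRs. The stretches were picked for their difference, so their values describe it and test nothing. Sequences are GRCh37, 5′ to 3′ along the gene, with every CpG in capitals. The first 4 were less methylated in OCI-AML3, and the other 5 were more methylated in OCI-AML3.
SOX13: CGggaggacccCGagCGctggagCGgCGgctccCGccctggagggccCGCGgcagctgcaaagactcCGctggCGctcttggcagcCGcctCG
SOX15: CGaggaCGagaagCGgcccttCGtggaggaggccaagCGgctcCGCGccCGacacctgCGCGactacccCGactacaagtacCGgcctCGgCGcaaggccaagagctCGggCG
FOXJ1: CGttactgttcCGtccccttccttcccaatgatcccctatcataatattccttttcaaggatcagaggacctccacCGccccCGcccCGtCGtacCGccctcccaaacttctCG
FOXC1: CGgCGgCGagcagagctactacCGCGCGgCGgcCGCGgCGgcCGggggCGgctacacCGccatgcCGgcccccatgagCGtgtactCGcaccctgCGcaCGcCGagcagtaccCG
FOXD3: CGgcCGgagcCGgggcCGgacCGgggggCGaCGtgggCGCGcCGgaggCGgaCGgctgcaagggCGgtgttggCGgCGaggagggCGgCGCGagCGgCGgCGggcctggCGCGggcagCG
FOXA1: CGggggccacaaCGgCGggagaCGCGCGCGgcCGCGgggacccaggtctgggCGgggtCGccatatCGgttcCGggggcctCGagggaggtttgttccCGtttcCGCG
FOXB1: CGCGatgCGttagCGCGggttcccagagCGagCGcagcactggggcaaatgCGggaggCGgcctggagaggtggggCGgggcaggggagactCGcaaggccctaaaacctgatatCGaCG
FOXC2: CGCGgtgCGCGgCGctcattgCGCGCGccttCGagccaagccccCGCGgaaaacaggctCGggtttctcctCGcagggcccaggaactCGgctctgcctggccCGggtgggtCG
SOX11: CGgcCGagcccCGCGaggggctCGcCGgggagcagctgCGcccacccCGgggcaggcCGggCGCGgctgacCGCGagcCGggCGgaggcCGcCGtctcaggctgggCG

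The SOX15 stretch (chr17:7492610-7492722, minus strand) lies in the coding sequence of exon 1, and its 16 CpG dinucleotides averaged 10.2% in OCI-AML3 and 94.9% in AML5. Pooled over 1032 and 746 calls, the methylated shares were 8.91% (Wilson 95% interval 7.33 to 10.8) and 94.4% (92.5 to 95.8). The opposite case was the coding sequence of FOXD3 (chr1:63788983-63789102, plus strand), where 24 CpG dinucleotides averaged 96.5% in OCI-AML3 and 27.7% in AML5. In OCI-AML3 the single CpG dinucleotides of this FOXD3 stretch lay between 91.2% and 100.0%, whereas in AML5 they ran from 0.0% to 84.6%. OCI-AML3 was thus evenly methylated here and AML5 was not.

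Of the other lower stretches, that of SOX13 lies in intron 1 (chr1:204043891-204043983, plus strand) and had levels of 4.48% in OCI-AML3 and 37.7% in AML5. The FOXJ1 stretch, also in intron 1 (chr17:74136942-74137055, minus strand), had levels of 1.09% and 64.7%, on 159 and 93 calls only. The FOXC1 stretch, in the coding sequence of its exon 1 (chr6:1610737-1610851, plus strand), had levels of 12.8% and 58.7%. In these 3 stretches the AML5 levels were intermediate, between the extremes that SOX15 showed.

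The 4 remaining higher stretches lie upstream of their genes. At FOXA1 (chr14:38068999-38069106, minus strand) the levels were 79.4% in OCI-AML3 and 12.3% in AML5. At FOXB1 (chr15:60292451-60292570, plus strand) they were 78.1% and 21.8%, and at FOXC2 (chr16:86599422-86599535, plus strand) 82.9% and 40.8%. The SOX11 stretch (chr2:5831971-5832078, plus strand) was at 92.8% and 49.5%. The GC content of the 9 stretches ranged from 56.1% at FOXJ1 to 85.8% at FOXD3.

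Across the 40 windows, the mean level over all CpG dinucleotides was 44.9% in OCI-AML3 and 42.5% in AML5. Over the windows of all protein-coding genes the order was the other way round (47.0% and 52.8%). FOXD3, with 590 CpG dinucleotides at 76.4% and 35.2%, weighs in the means of the 40 windows, which were not computed without it. The difference (OCI-AML3 minus AML5, in percentage points) was positive at 17 of 40 FOX and SOX genes, or 42.5%, and at 10.8% of all protein-coding genes. Its median was −1.52 points over the 40 genes and −5.49 points over all protein-coding genes. It was −0.98 points for the 24 forkhead genes and −4.96 points for the 16 SOX genes, with overlapping ranges of −11.8 to 41.2 and −14.2 to 18.4. With 1 library per line, none of these medians has a test between the lines.

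**Figure D1:**
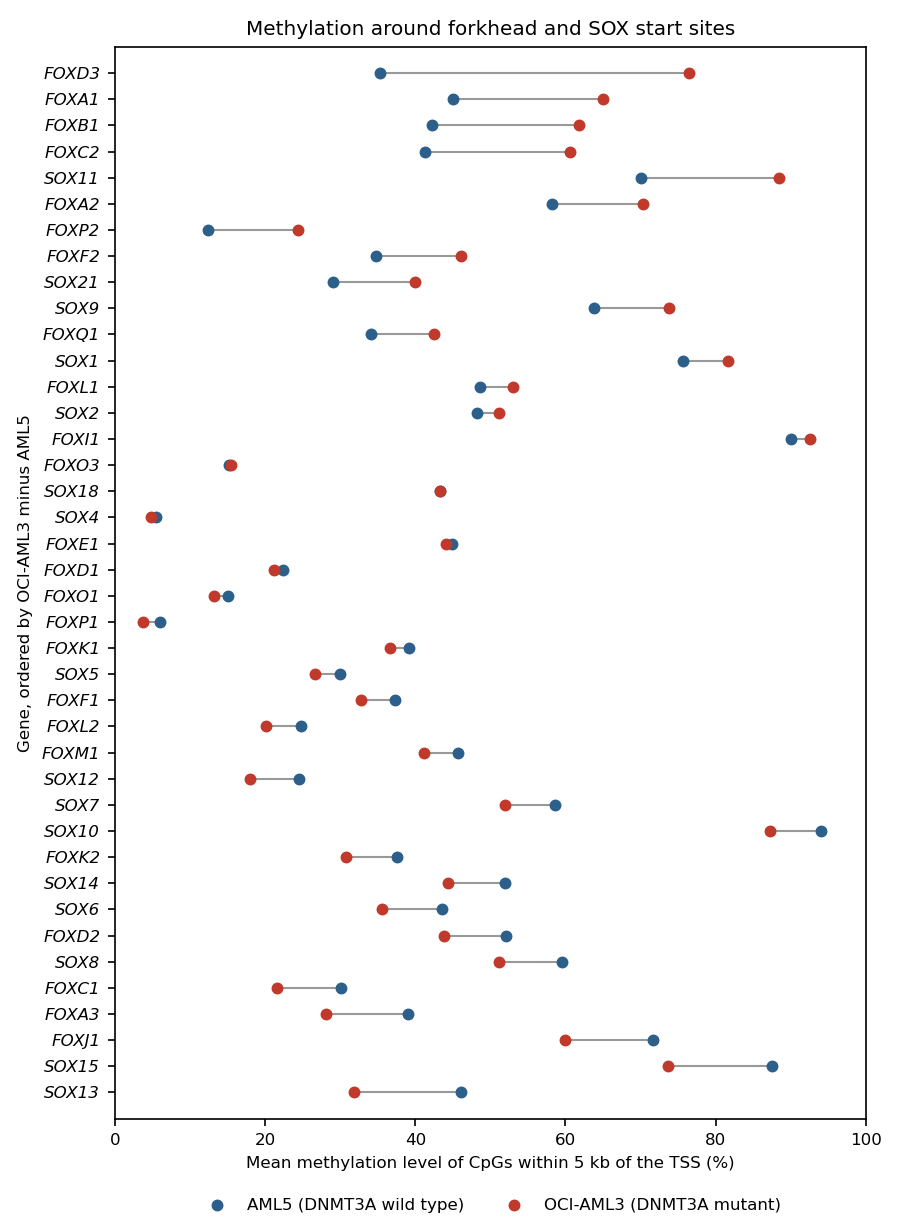
Mean methylation level (%, x axis) of the CpG dinucleotides within 5 kb of the TSS of each of the 40 genes (y axis, ordered by difference), with AML5 in blue and OCI-AML3 in red, 1 library each and hence no error bar. FOXD3 at the top spans 35.2% to 76.4%, and SOX13 at the bottom runs the opposite way, from 46.0% in AML5 to 31.8% in OCI-AML3.

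A decrease of over 20 points in OCI-AML3 was seen at 0 of 40 genes, against 6.55% of all protein-coding genes. An increase of over 20 points was seen at 2 of 40 genes, FOXD3 and FOXA1, against 0.964% of all protein-coding genes. FOXA1 was just inside this limit (20.04 points) and fell below it with at least 10 reads in both lines (19.99 points), where FOXB1 passed (20.7 points), and at the canonical TSS (19.94 points). With pooled calls (22.3 points), windows of 2 kb (22.7 points) or at least 20 reads (20.3 points) FOXA1 stayed past the limit. In the windows as defined, FOXB1 (19.5 points), FOXC2 (19.3 points) and SOX11 (18.4 points) were just outside. Past 10 points, 4 genes were lower (10.0%, against 25.5% of all genes) and 9 were higher (22.5%, against 2.95%).

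Single CpG dinucleotides were compared between the libraries with Fisher's exact test, two-sided and with Benjamini–Hochberg adjustment over all nuclear CpG dinucleotides. Of the 17070 in the FOX and SOX windows, 2409 (14.1%) were called lower in OCI-AML3, 2933 (17.2%) were called higher, and 11728 passed in neither direction. In the whole genome 14.7% were called lower and 3.86% higher, and within 5 kb of any protein-coding TSS these shares were 13.6% and 4.64%. The share of lower calls in the FOX and SOX windows was thus near the background, and the share of higher calls was above it. More CpG dinucleotides were called lower than higher at 25 of 40 genes (87.1% of all protein-coding genes) and the reverse held at 15 of 40 (11.2% of all). Over 10% of CpG dinucleotides were called in each direction at 13 of 40 genes, against 6.34% of all protein-coding genes. The test gains power with depth, and the part of the deeper OCI-AML3 coverage in these counts was not tested.

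FOXD3, which keeps pluripotent cells and neural crest precursors undifferentiated, had the largest difference of the 40 genes. Within 5 kb it was methylated at 76.4% in OCI-AML3 and at 35.2% in AML5, each with an SD of 33.3 points over 590 CpG dinucleotides. The share of all calls that were methylated was 77.4% (Wilson 95% interval 76.9 to 77.9) and 34.7% (34.1 to 35.3). Of the 590, 370 were called higher in OCI-AML3 and 33 lower. The difference was larger 1 to 5 kb from the TSS (82.1% and 31.6%) than within 1 kb (63.4% and 43.7%). A block of 109 CpG dinucleotides over 786 bp of coding sequence averaged 95.1% in OCI-AML3 and 19.8% in AML5, and 108 of its 109 CpG dinucleotides were called higher.

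Its paralogues did not share this difference. FOXD2, expressed in the developing kidney and face, had levels of 43.8% in OCI-AML3 and 52.1% in AML5, with 4 lower blocks, all in its coding sequence. At FOXD1, which marks the kidney stroma, the levels were 21.2% and 22.4%, and this near equality hid 136 CpG dinucleotides called lower and 93 called higher. Within 1 kb of the FOXD1 TSS OCI-AML3 was lower (3.66% and 14.7%), and a downstream block of 42 CpG dinucleotides was higher (87.2% and 31.1%).

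The FOXA genes encode the pioneer factors of liver, gut, lung and breast. FOXA1 had levels of 65.04% in OCI-AML3 and 45% in AML5, with 198 of 513 CpG dinucleotides called higher and 10 called lower. Within 1 kb of its TSS the levels were 39.9% and 13.9%. Of the 5 genes with the largest increases, only FOXA1 was under 20% there in AML5. FOXA2 was methylated in both lines and more so in OCI-AML3 (70.3% and 58.3%). FOXA3 moved the other way, at 28.1% in OCI-AML3 and 39.0% in AML5. A block of 19 CpG dinucleotides reaching into the 5′ UTR of FOXA3 had levels of 3.398% and 47.9%, and all 19 were called lower.

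FOXB1, a gene of the developing hypothalamus and mammillary body, had levels of 61.8% in OCI-AML3 and 42.3% in AML5, and 75.8% and 46.5% within 1 kb. It held 8 higher blocks and 1 lower block, the latter in its 3′ UTR. FOXP2, best known for its role in speech circuits, stayed unmethylated within 1 kb in both lines (1.96% and 0.348%) and differed in the flanks (37.9% and 19.8%). Most of that came from a block of 62 CpG dinucleotides, 961 to 1618 bp downstream of the TSS, with levels of 91.9% and 35.8%. The FOXP2 value belongs to its most upstream TSS only, since around the canonical TSS, 328488 bp away, OCI-AML3 was the lower line (84.5% and 95.5%).

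FOXC1 and FOXC2, paralogues needed for vessels, eye and mesenchyme, differed in opposite directions. FOXC1, the window with the most CpG dinucleotides (737), had levels of 21.5% in OCI-AML3 and 30.1% in AML5, with 236 called lower and 102 called higher. Within 1 kb of its TSS the levels were 6.44% and 29.97%, and in its flanks they were nearly equal (28.7% and 30.1%). FOXC2 had levels of 60.6% and 41.3%, with 171 of 484 CpG dinucleotides called higher and 18 called lower, and 62.4% and 28.1% within 1 kb. Beside its 9 lower blocks FOXC1 held 3 higher ones, the largest in its coding sequence (40 CpG dinucleotides at 84.3% in OCI-AML3 and 37.4% in AML5).

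**Figure D2:**
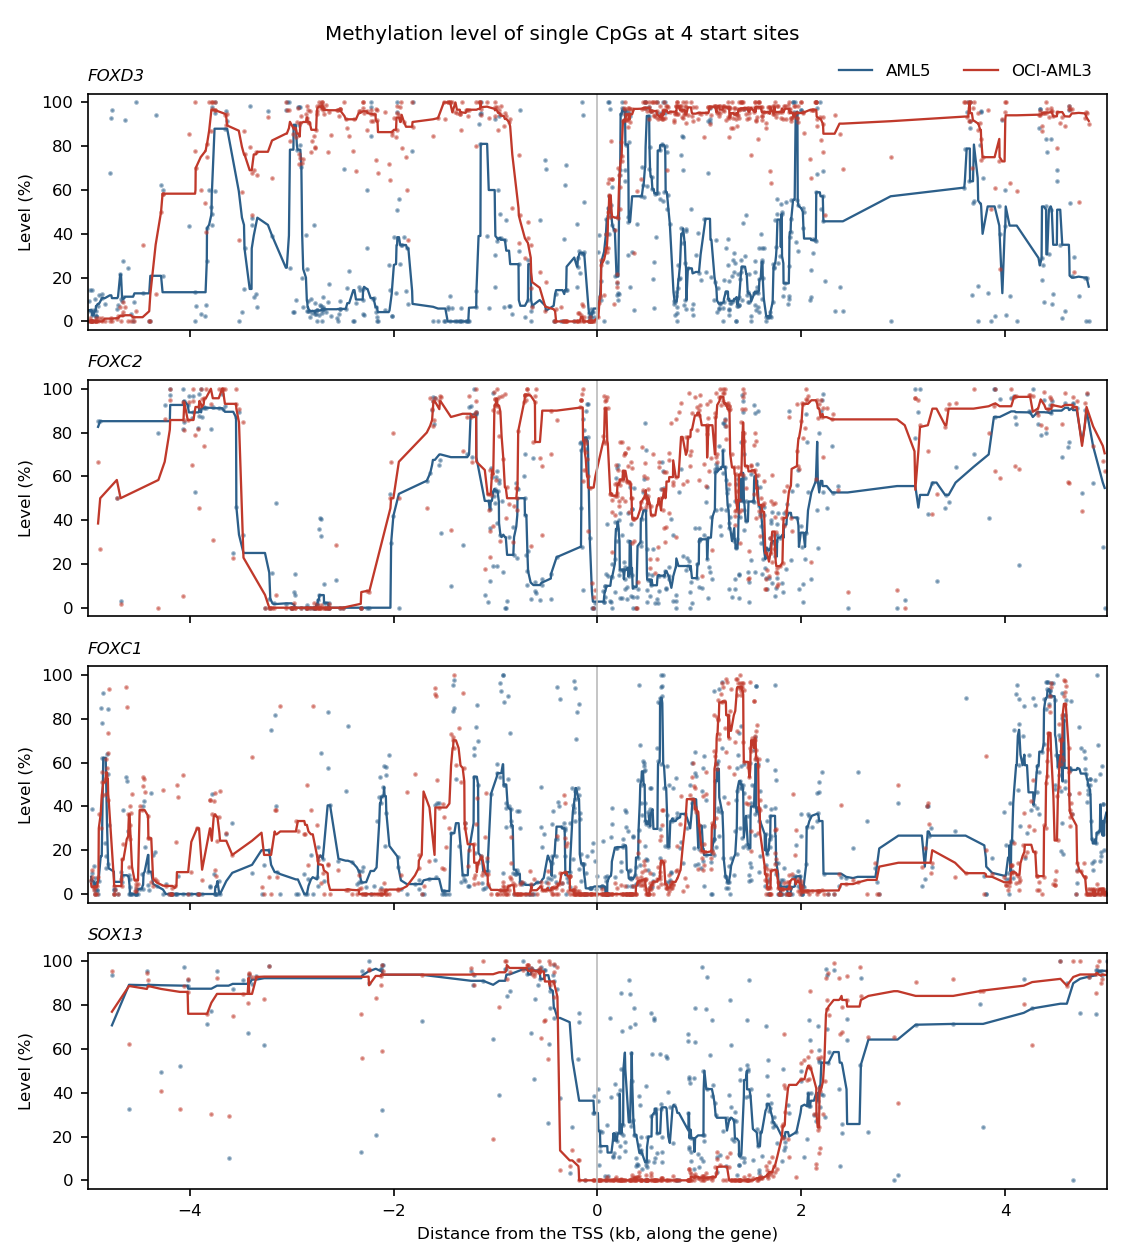
Methylation level (%, y axis) of single CpG dinucleotides against distance from the TSS (kb along the gene, x axis) at FOXD3, FOXC2, FOXC1 and SOX13, with AML5 in blue and OCI-AML3 in red. Points are CpG dinucleotides and lines are running medians over 11 of them. FOXD3 is higher in OCI-AML3 over most of its window, FOXC1 alternates between lower and higher blocks, and SOX13 is near 0% in OCI-AML3 just downstream of the TSS where AML5 is intermediate.

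Some forkhead genes lie in clusters, and both clusters held genes of either direction, although the closest pair of each cluster had the same sign. On chromosome 16, FOXF1 (a mesoderm factor of lung and gut) lies 56.3 kb from FOXC2, which lies 9.5 kb from FOXL1 and shares 13 CpG dinucleotides with its window. The levels were 32.8% in OCI-AML3 and 37.3% in AML5 at FOXF1 and 53.0% and 48.6% at FOXL1, a gene of the gut mesenchyme. The differences of FOXF1, FOXC2 and FOXL1 were −4.50, 19.3 and 4.44 points. On chromosome 6, FOXQ1 lies 77.5 kb from FOXF2, which lies 220.3 kb from FOXC1, and their differences were 8.39, 11.3 and −8.54 points. FOXQ1, a gene of stomach and hair follicle, had levels of 42.5% in OCI-AML3 and 34.1% in AML5. FOXF2, which acts in the mesenchyme of gut and palate, had 46.0% and 34.8% and held both directions. A block of 40 CpG dinucleotides in its 5′ UTR had levels of 1.33% in OCI-AML3 and 51.2% in AML5, and a block of 47 in the coding sequence of the same exon had levels of 87.5% and 27.3%.

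FOXJ1, the master factor of motile cilia, had levels of 59.9% in OCI-AML3 and 71.7% in AML5, and 19.6% and 41.9% within 1 kb. FOXI1, a factor of ion-transporting cells of the kidney and inner ear, was highly methylated in both lines (92.6% and 90.0%) and had no block of difference. The other tissue-restricted forkhead genes differed by little over the whole window. FOXE1, a thyroid factor, had levels of 44.1% in OCI-AML3 and 44.9% in AML5, and FOXL2, an ovary factor, 20.2% and 24.8%. Each again held over 10% of CpG dinucleotides in either direction: FOXE1 had 121 called lower and 103 called higher, FOXL2 121 and 53.

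SOX genes are grouped by sequence and by role. SOX1 and SOX2 maintain neural and pluripotent precursors, and SOX14 and SOX21 act largely as repressors in the same tissues. SOX1 had levels of 81.6% in OCI-AML3 and 75.6% in AML5, SOX2 51.1% and 48.3%, and SOX21 39.996% and 29.0%. SOX14 was lower in OCI-AML3 (44.4% and 51.9%). SOX1 and SOX2 were methylated within 1 kb of the TSS in both lines, at 89.4% and 79.0% for SOX1 and at 66.9% and 61.5% for SOX2. In SOX21 a block of 42 CpG dinucleotides in exon 1 had levels of 82.1% in OCI-AML3 and 34.9% in AML5, and a block of 22 upstream of the TSS had 13.0% and 50.9%.

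Of the SOXC group, SOX4, SOX11 and SOX12, levels differed more between the genes than between the lines. SOX11, a neural gene whose product marks mantle cell lymphoma, had levels of 88.4% in OCI-AML3 and 70.0% in AML5. Of its 550 CpG dinucleotides, 193 were called higher and 7 lower. SOX4, which is active in lymphoid and myeloid progenitors, had levels of 4.84% and 5.55%, and SOX12, also expressed in blood cells, 17.9% and 24.6%. Within 1 kb SOX12 was at 0.208% and 0.157%. SOX12 had lower blocks upstream and in the 3′ UTR (37.3% and 88.7%, 24.4% and 69.5%), at the edges of its unmethylated stretch in OCI-AML3. Each of these blocks held 14 of the 51 CpG dinucleotides called lower in the window, so the SOX12 difference was not confined to them.

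Of the SOXD group, SOX13, an autoantigen and factor of gamma-delta T cells, had a decrease of the mean over 5 kb close to that of SOX15 (−14.2 and −13.8 points), which was the larger when calls were pooled (−18.8 for SOX13 and −21.2 for SOX15). The SOX13 levels were 31.8% in OCI-AML3 and 46.0% in AML5, with 138 of 322 CpG dinucleotides called lower and 29 called higher. Within 1 kb the levels were 19.3% and 41.3%. A block of 21 CpG dinucleotides in the SOX13 5′ UTR was at 0.265% and 45.7%, at a depth of 105 and 50.7 calls, and all 21 were called lower. SOX6, a factor of red cell maturation and cartilage, had levels of 35.5% in OCI-AML3 and 43.5% in AML5, with 18 of 157 CpG dinucleotides called lower and 0 called higher. A block of 10 just upstream of the SOX6 TSS was at 8.61% and 67.3%. Around the canonical TSS of SOX6, 383046 bp away, the levels were 19.4% in OCI-AML3 and 35.8% in AML5, on 36 CpG dinucleotides only. SOX5, its partner in cartilage, had levels of 26.7% and 29.99% at its most upstream TSS. At the canonical TSS of SOX5, 612874 bp away, OCI-AML3 was the higher line (54.2% and 42.1%).

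The SOXE genes, which act in neural crest, cartilage and testis, did not move together. SOX9 had levels of 73.8% in OCI-AML3 and 63.8% in AML5, with 132 CpG dinucleotides called higher and 37 lower. SOX8 went the other way (51.1% and 59.5%), and SOX10 was methylated in both lines (87.2% and 94.0%) with no block of difference. The SOXF genes of blood vessels, SOX7 and SOX18, had levels of 52.0% and 58.6%, and of 43.2% and 43.2%. SOX18 had 81 CpG dinucleotides called lower and 71 called higher, so that its equal means were an average over opposite blocks. SOX15, the only SOXG gene, which acts in placenta and muscle precursors, had levels of 73.7% and 87.5%. Pooled over calls instead of CpG dinucleotides, the SOX15 shares were 66.3% (65.4 to 67.3) and 87.5% (86.7 to 88.2). The SOX15 means over CpG dinucleotides were 50.7% and 87.3% within 1 kb and 89.1% and 87.7% at 1 to 5 kb, and 1 block of 37 CpG dinucleotides in exon 1 held the decrease (6.19% and 80.7%, all 37 called lower).

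The forkhead genes with a role in blood cells were little methylated near the TSS in both lines. FOXO1, a target of AKT in B cells, had levels of 0.354% in OCI-AML3 and 2.27% in AML5 within 1 kb, and 13.2% and 15.1% within 5 kb. FOXO3, which protects blood stem cells from oxidative stress, had levels of 0.192% and 0.213%, and 15.4% and 15.1%. FOXP1, a B cell factor, had the lowest sum of both levels within 5 kb (3.73% and 6.08%), and stood at 0.016% and 0.542% within 1 kb. FOXM1, which drives mitotic genes, had levels of 0.437% and 1.95%, and 41.1% and 45.8%. The widely expressed FOXK1 (36.7% and 39.2% within 5 kb) and FOXK2 (30.7% and 37.5%) were also unmethylated within 1 kb.

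The 40 genes were sorted by their level within 1 kb of the TSS, taking a mean under 20% as unmethylated and at least 50% as methylated. Unmethylated in both lines were 13 of 40 genes, against 45.5% of all protein-coding genes with enough CpG dinucleotides there. These 13 were FOXO1, FOXO3, FOXP1, FOXM1, SOX4 and SOX12, which have a role in blood cells, and FOXA3, FOXD1, FOXD2, FOXK1, FOXK2, FOXP2 and SOX5. SOX6 (12.0% in OCI-AML3 and 23.04% in AML5) and SOX13 (19.3% and 41.3%), which also act in blood cells, were not among them. Methylated in both lines were 8 genes (SOX1, SOX2, SOX9, SOX10, SOX11, SOX15, FOXA2 and FOXI1), and 19 lay in between in at least 1 line. Over all protein-coding genes, 4936 of 18777 were methylated in both lines and 5082 lay in between. A switch from unmethylated to methylated was seen at 0 of 40 genes in the direction of OCI-AML3 (background 0.298%) and at 0 of 40 in the direction of AML5 (background 0.82%). Around the canonical TSS the count of genes unmethylated in both lines was 10 in place of 13. FOXP2 (85.8% in OCI-AML3 and 93.9% in AML5), SOX5 (42.4% and 20.4%) and FOXA3 were then not in this class. The count was 15 within 500 bp of the TSS and 9 when unmethylated meant under 10%. It was 13 with at least 10 reads, and 14 with at least 20 reads or with pooled calls.

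Split by distance, the median difference was −1.36 points within 1 kb of the TSS (25 genes negative, 15 positive) and 0.845 points at 1 to 5 kb (18 negative, 22 positive). Over all protein-coding genes these medians were −3.10 and −6.93 points. There 15130 of 18777 genes were negative within 1 kb and 17960 of 19869 at 1 to 5 kb. The FOX and SOX median thus stood further from that of all genes in the flanks than near the TSS. In bins of 500 bp, OCI-AML3 was lower from 1000 bp upstream to 500 bp downstream of the TSS, where the differences were −1.36, −3.97 and −1.84 points, and in 2 distal upstream bins. In the bin 1000 to 1500 bp downstream it was higher (49.5% and 39.1%), and in the same bin of all protein-coding genes it was lower (39.8% and 46.9%).

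**Figure D3:**
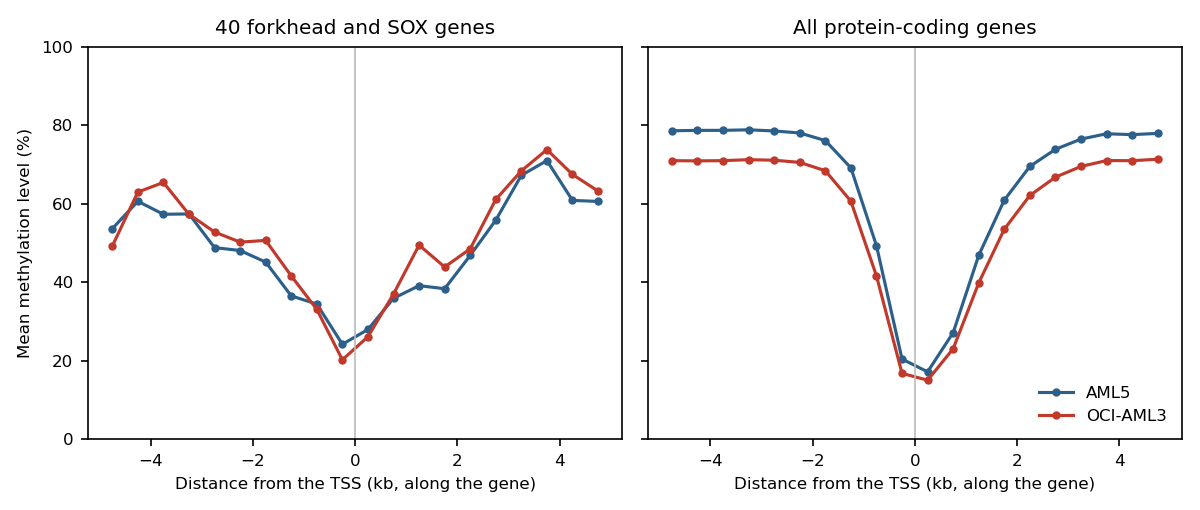
Mean methylation level (%, y axis) in bins of 500 bp against distance from the TSS (kb, x axis), for the 40 FOX and SOX genes on the left and all protein-coding genes on the right, with AML5 in blue and OCI-AML3 in red. On the right OCI-AML3 lies below AML5 in every bin, and on the left the lines cross, with OCI-AML3 the higher by 10.4 points in the bin 1000 to 1500 bp downstream.

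**Figure D4:**
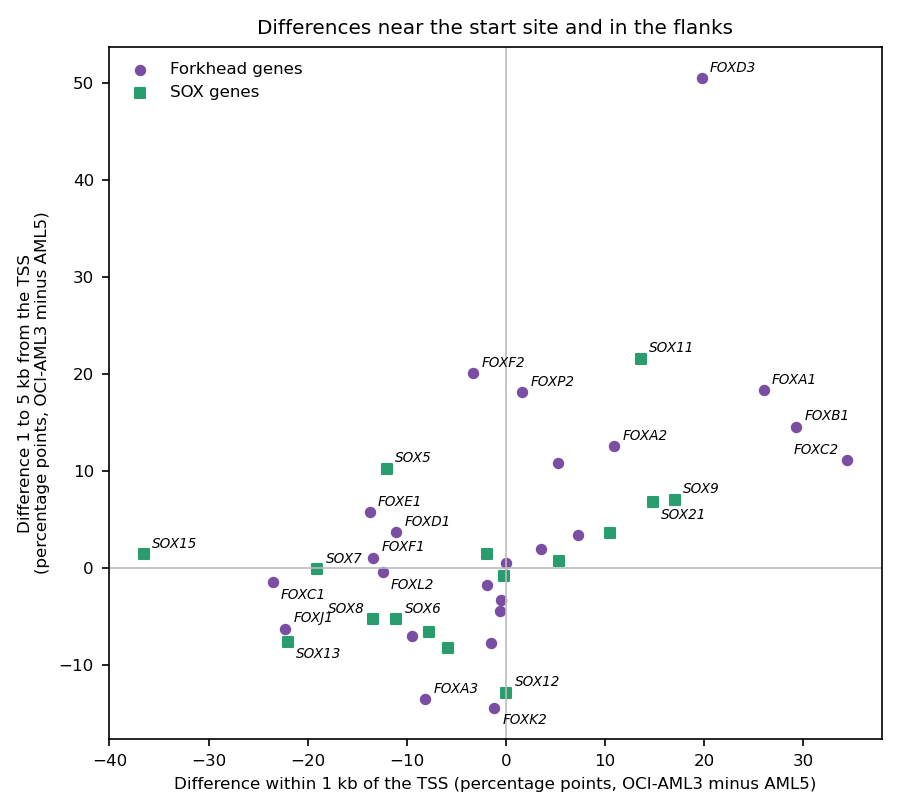
Difference within 1 kb of the TSS (x axis) against the difference 1 to 5 kb from it (y axis), both OCI-AML3 minus AML5 in percentage points, with forkhead genes as circles and SOX genes as squares. FOXD3 stands at the top for its flanks, FOXC2 and FOXB1 at the right for their TSS regions, and SOX15 at the left with the largest decrease near the TSS.

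Runs of at least 10 consecutive CpG dinucleotides whose difference (median over 5 neighbours) was at least 20 points in 1 direction were taken as blocks. A lower block was present at 27 of 40 genes, against 42.1% of all protein-coding genes, and a higher block at 25 of 40, against 11.1%. Both kinds were present at 19 of 40 genes, against 5.41%. FOX and SOX windows held a median of 436.5 CpG dinucleotides and the windows of all genes 198, which gives more room for blocks, so shares of CpG dinucleotides are the closer comparison. Lower blocks held 6.49% of the CpG dinucleotides in the FOX and SOX windows and 6.18% in all windows, and higher blocks 12.2% and 2.19%. In all there were 68 lower blocks with 1108 CpG dinucleotides and 95 higher blocks with 2082. No block was found at FOXI1, FOXK1, FOXO1, FOXP1, SOX2, SOX4 and SOX10.

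The levels of AML5 in these windows were more often intermediate than those of OCI-AML3. The share between 20% and 80% was 25.96% for OCI-AML3 against 32.9% for AML5, whereas in the windows of other protein-coding genes the shares were 17.0% and 15.3%. At least 80% methylated were 32.4% in OCI-AML3 and 26.7% in AML5, against 39.8% and 46.9% in other windows. From AML5 to OCI-AML3, 9.95% of the FOX and SOX CpG dinucleotides went from intermediate to under 20% (other windows 6.05%) and 10.3% from intermediate to at least 80% (other windows 3.30%). A full change from under 20% to at least 80% was seen at 2.42% (other windows 0.586%), and the reverse at 1.27% (other windows 2.30%). The intermediate share was larger in AML5 at 22 genes and larger in OCI-AML3 at 17, the widest gaps being at SOX13 (14.9% in OCI-AML3 and 52.5% in AML5), SOX11 (15.1% and 45.5%) and FOXE1 (26.8% and 56.1%). These counts do not say whether intermediate levels came from alleles, from cells or from positions within a read.

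The pattern varied with CpG density, counted as CpG dinucleotides listed within 100 bp on either side. Where 10 to 19 were listed, the FOX and SOX windows had mean levels of 48.3% in OCI-AML3 and 42.8% in AML5, and other windows of 35.7% and 40.1%. Where 20 or more were listed, the FOX and SOX levels were 35.0% and 33.1% and the other levels 13.5% and 15.0%. In the sparsest class (1 to 4) OCI-AML3 was lower in both sets, by −1.90 points in the FOX and SOX windows and by −9.77 points in the others. Even in the densest class the shares called lower and higher were both large in the FOX and SOX windows (15.5% and 17.1%), against 8.82% and 5.72% elsewhere. In this class the FOX and SOX windows had 53.0 calls per CpG dinucleotide for OCI-AML3 against 33.5 for AML5, and the other windows 57.4 against 36.4.

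**Figure D5:**
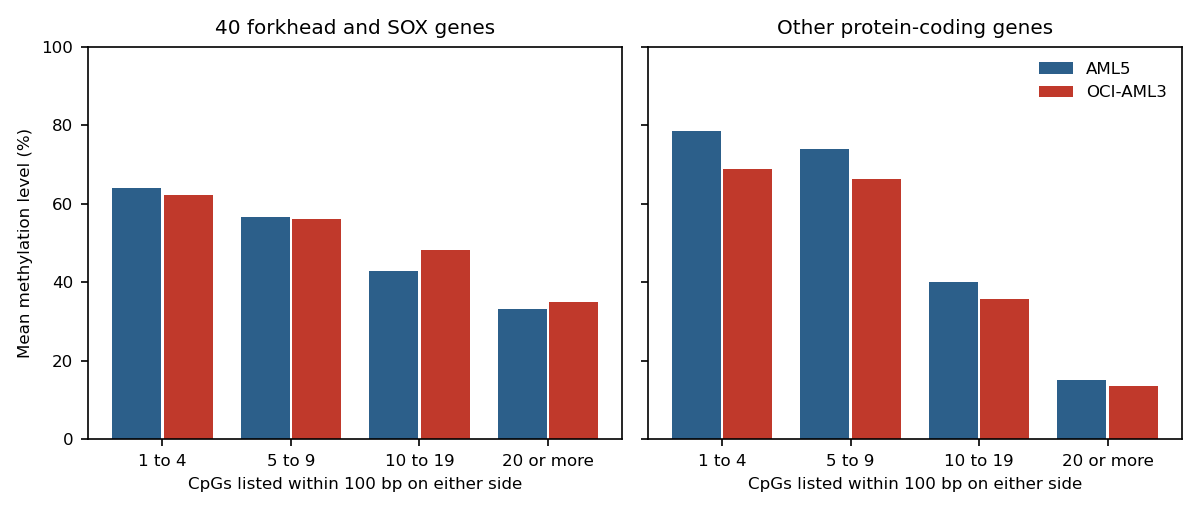
Mean methylation level (%, bars from 0) by the number of CpG dinucleotides listed within 100 bp on either side (x axis), for the FOX and SOX windows on the left and the windows of other protein-coding genes on the right, with AML5 in blue and OCI-AML3 in red (1 library each, no error bar). The FOX and SOX bars of OCI-AML3 exceed those of AML5 where 10 or more CpG dinucleotides are listed, and on the right they are lower in all 4 classes.

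The longest unmethylated stretch (consecutive CpG dinucleotides under 20%, median over 5 neighbours) was longer in OCI-AML3 at 31 of 40 genes. This was near the background, since 73.3% of all protein-coding genes had the longer stretch in OCI-AML3. With a median over 9 neighbours the count was 25 of 40. The longest stretch was sought in each line separately and could lie at different places, as at FOXD3 (chr1:63782640-63783902 in OCI-AML3 and chr1:63793031-63793902 in AML5). It could also rest on few CpG dinucleotides (4 at FOXA2 in OCI-AML3, 2 at FOXE1 in AML5). The median length of the longest stretch was 1288 bp in OCI-AML3 and 868 bp in AML5. The longest was at FOXP1 (8572 bp and 5480 bp), followed by SOX4 (6015 bp and 5278 bp) and FOXO3 (4274 bp and 4053 bp), all genes with a role in blood. At SOX13 the stretch was 2177 bp in OCI-AML3 and 77 bp in AML5.

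A list of 94 developmental transcription factor genes of other families, mostly homeobox and T-box genes, had a median difference of 1.42 points. HAND1, HAND2, ZIC1 and ZIC4 in this list, for example, are neither homeobox nor T-box genes. Of the 94 genes, 54 were positive, 5 were lower and 6 were higher by over 20 points. ZIC4 (−43.1 points) was 1 of those 5 and HAND2 (20.4 points) 1 of those 6. Lower and higher blocks held 11.4% and 14.0% of the CpG dinucleotides of the 94 genes. Increases of this kind were therefore not limited to the forkhead and SOX families. The 22 other forkhead and SOX genes outside the list were closer to the genome, with a median of −5.09 points and 18 of 22 negative. Among these, FOXE3 (59.995% in OCI-AML3 and 79.9% in AML5) and FOXD4 (33.9% and 52.8%) had the largest decreases, and SOX3 (81.5% and 62.3%) and SOX17 (43.5% and 37.6%) the largest increases. Over all protein-coding genes, 17762 of 19909 were negative. Of 15 partners and regulators, among them AKT1, CTNNB1, CREBBP and the export receptor XPO1, 14 were negative, with a median of −3.10 points. The exception was POU5F1, the pluripotency partner of SOX2, at 83.9% in OCI-AML3 and 73.0% in AML5, and at 88.6% and 55.5% within 1 kb. Myeloid genes (13) and genes of other cell types (15) had medians of −6.00 and −11.1 points.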

How the data were processed

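The authors sheared genomic DNA, converted it with bisulfite, sequenced paired ends and, per the labels, aligned to hg19 with Bowtie 0.12.8 and Bismark. Each deposited table gives, for every CpG, 2 counts as the authors obtained them, one of methylated and the other of unmethylated reads. Both strands are summed, and nothing is normalized. The listed position is the G of each CpG (4468 of 4468 checked in GRCh37), and the column of methylated calls was identified from the mitochondrial genome (0.168% methylated in OCI-AML3, 0.101% in AML5). Spike-in conversion values were not used here.

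Levels were means over CpG dinucleotides that both lines covered with more than 5 reads, around the most upstream protein-coding TSS in GENCODE release 44 lifted to GRCh37. Sequences were read from the GRCh37 genome. The lower block of FOXA3 had no long enough stretch wholly outside UTRs, and no sequence is printed for it. Wilson 95% intervals treat calls as independent. Fisher's exact test, Benjamini–Hochberg adjusted at 0.05 over all nuclear CpG dinucleotides, was first tested on simulated data. It compares 2 libraries, not the genotypes.

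Described individually were the 8 genes with the largest decreases and the 8 with the largest increases, any past 20 points, the 4 with the lowest and the 4 with the highest sums of both levels, and FOXO1, FOXO3, FOXP1, FOXM1, SOX4, SOX6 and SOX12, which gives 24 of 40 genes. Of other forkhead and SOX genes, the 2 that decreased most and the 2 that increased most were named. The remaining members, POU5F1, CEBPA, SPI1, MPO, CSF1R, AZU1 and ELANE were named after their values were seen. Genes and lists were chosen with earlier results of these data known. The calculations used Python 3.11.15 with pandas 2.3.3, numpy 2.4.6, numba 0.67.0 and scipy 1.17.1, and matplotlib 3.10.9 for plots.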

Additional observations from a re-analysis of the deposited data

How the results depend on the processing

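No paired analysis was possible because each line had 1 library. With at least 10 reads in both lines FOXB1 replaced FOXA1 among the 2 genes higher by over 20 points, and the medians over the 40 genes were −1.33 points (5 kb), −1.16 (1 kb) and 1.22 (1 to 5 kb). With at least 20 reads, an alternative chosen after seeing the data, 4 genes were higher by over 20 points and the first 2 medians were −0.57 and −0.52. Pooling calls put 1 gene, SOX15, past the limit as lower and 3 genes (FOXD3, FOXA1 and FOXB1) as higher. The medians with pooled calls were −2.15, −0.90 and 1.29. The canonical TSS left 1 gene higher (FOXD3) and gave −1.55 (1 kb) and 0.26 (1 to 5 kb). Windows of 2 kb gave 2 genes lower, 4 higher, a median of −1.33, and 1535 CpG dinucleotides called lower and 1809 higher. A limit of 10 points gave 4 lower and 9 higher genes, and 1 of 30 points 1 higher gene. Relative to the median of all protein-coding genes, 5 genes were higher and the median turned to 3.96. Bonferroni adjustment left 451 CpG dinucleotides lower and 754 higher. Among the genes described individually, SOX13 had the largest decrease in the windows as defined and with at least 10 reads or without the deepest CpG dinucleotides. SOX15 had it with at least 20 reads, pooled calls or 2 kb. SOX6 had it at the canonical TSS, on 36 CpG dinucleotides only. Leaving out the deepest 0.1% of CpG dinucleotides gave the reported counts of genes. Of the 24 genes described individually, 22 kept 1 sign in 6 alternatives, and FOXO3 (−1.03 to 0.46 points) and FOXP2 (−11.0 to 13.0) did not. Fewer CpG dinucleotides (stricter reads, smaller windows) enter by construction, and beyond that the cause was not tested. With 3 calls taken as the fewest that show methylation, the mean depth of a window sets the lowest share a single CpG dinucleotide can show. In the deeply read SOX13 window this was 4.28% in OCI-AML3 and 5.96% in AML5. Over the 40 genes it ran from 3.72% (SOX7) to 11.6% (FOXO1) in OCI-AML3. In AML5 it ran from 5.27% (SOX7) to 12.1% (SOX5). No value here covers the spread between cultures.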
